A study of Mus musculus with 20 samples.

Results

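Paternal pronuclei of WT zygotes cultured with a replication block (WT-Pat-Aphi, 2 libraries) were set against sperm (Sperm, 2 libraries). Sperm stands here for the state in which the paternal genome enters the egg. The 4 libraries of 20 in the series were taken by their titles, and 555731 autosomal positions with at least 5 reads in each of the 4 were kept, of 1618265 that reached 5 reads in at least 1 of them. A position is a cytosine of a CpG on 1 strand. Neighbouring positions were grouped into windows, called tiles, that held at least 2 of them, which gave 104345 tiles of 100 bp and 63560 tiles of 1000 bp.

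The study measured DNA methylation by reduced representation bisulfite sequencing, which sequences MspI fragments and so favours CpG-rich DNA, in gametes of the mouse and in pronuclei removed from zygotes by micromanipulation. For WT-Pat-Aphi, oocytes of superovulated WT (f/f) females aged 7 to 10 weeks were fertilised in vitro with caudal epididymal sperm of adult C57BL/6J males. The zygotes were held in 3 µg/ml aphidicolin from 5 h after fertilisation, and their paternal pronuclei were isolated at 12 h and frozen at 13 h. CKO-Pat-Aphi pronuclei had the same treatment and times but came from oocytes of Zp3-Cre, f/- females, in which Cre is driven in growing oocytes and Tet3 is lost from the egg. The fertilising sperm was the same C57BL/6J kind in every zygote, so the paternal genome itself carried no deletion. WT-Pat pronuclei were of WT zygotes cultured without the drug (mock), and the Sperm libraries carry the labels WT and mock. The labels do not give the strain or the number of males behind the Sperm libraries. A difference between males therefore cannot be told apart from a change after fertilisation. A pronuclear library was typically made from a pool of about 20 pronuclei with 21 PCR cycles, so that every value is an average over pooled zygotes, and the labels do not say that the 2 libraries of a group came from separate collections. The p-values below therefore compare libraries and not animals, and part of the difference between libraries may be technical.

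Sperm DNA is heavily methylated outside CpG islands, and much of that methylation leaves the paternal genome in the zygote before the first cleavage. The dioxygenase Tet3, stored in the egg, oxidises 5-methylcytosine to 5-hydroxymethylcytosine and further forms, and replication without maintenance dilutes the mark. Aphidicolin blocks replicative DNA polymerases, so under a complete block a loss is one that needed no replication. How complete the block was in the pooled zygotes was not measured here. Bisulfite sequencing reads 5-methylcytosine and 5-hydroxymethylcytosine alike as methylated, so oxidation to the hydroxymethyl form alone does not lower the values given here.

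The WT-Pat-Aphi libraries held 22431861 and 46562583 calls, against 54486987 and 53065048 in Sperm. At the shared positions the median depth was 19 and 42 reads in WT-Pat-Aphi and 42 and 40 in Sperm, and a 100-bp tile had a median of 72 and 171 calls against 152 and 147. WT-Pat-Aphi replicate 1 was thus the shallowest of the 4. Replicates were separate libraries and not copies: the chi-square statistic per degree of freedom between the 2 tile levels was 41.1 in WT-Pat-Aphi and 3.90 in Sperm, so the pronuclear libraries differed from each other far more than the sperm libraries did. Parent of origin was read from tiles methylated in 1 gamete only. At the 9410 tiles that sperm methylates and oocytes do not, WT-Pat-Aphi stood at 91.6% and 93.7%, beside 3.26% and 3.24% in oocytes and 95.8% and 95.8% in Sperm. Both WT-Pat-Aphi libraries thus carried the sperm pattern. CKO-Pat-Aphi replicate 1 stood apart: it had 88.5% at these tiles, against 95.3% in CKO-Pat-Aphi replicate 2, and 10.9% against 5.34% at 3141 tiles methylated in oocytes only.

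Methylation averaged over all shared positions was close to that of sperm in zygotes held in aphidicolin. The mean was 20.15% and 19.92% in WT-Pat-Aphi, against 19.55% and 19.52% in Sperm, each position weighted equally. The group means of 20.03% ± 0.166 and 19.54% ± 0.0169 (SD, n = 2 each) differed by 0.498 percentage points, and the 4 differences between single libraries ran between 0.369 and 0.628 points. Both pronuclear libraries lay above both sperm libraries (exact two-sided permutation test, p = 0.333, the smallest p that 2 against 2 can give). Weighted by calls the groups overlapped, at 18.6% and 23.3% in WT-Pat-Aphi and 19.2% and 20.0% in Sperm, a difference of 1.33 points (exact two-sided permutation test, p = 1.0). The small difference with equal weights was a sum of opposite ones: the mean level lay lower in tiles that sperm methylates and higher in tiles that it does not.

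Tiles were therefore split by their sperm level. Of the 104345 tiles of 100 bp, 23423 (22.4%) were sperm-methylated, at 75% or more in both Sperm libraries, 4720 (4.52%) were partly methylated, with a sperm mean between 25% and 75%, and 75343 (72.2%) were sperm-unmethylated, at 25% or less in both. The remaining 859 tiles met none of these rules.

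Sperm-methylated tiles kept nearly all of their methylation. They averaged 92.26% and 94.26% in WT-Pat-Aphi, against 96.01% and 96.01% in Sperm. Both pronuclear libraries lay below both sperm libraries, and they differed from each other by more than the sperm libraries did. With group means of 93.26% ± 1.41 and 96.01% ± 0.00111 (SD, n = 2 each), the difference was -2.75 points, and single libraries differed by between -3.75 and -1.75 (exact two-sided permutation test, p = 0.333). Leaving out WT-Pat-Aphi replicate 1, the shallower library, left -1.75 points. With the tiles chosen on Sperm replicate 1 alone and the sperm level read from replicate 2, the difference was -2.70 points, so the choice of tiles on the compared libraries moved it little. In 25891 sperm-methylated tiles of 1000 bp the levels were 92.52% and 94.49% in WT-Pat-Aphi and 96.00% and 95.99% in Sperm, a difference of -2.49 points.

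The difference had 1 sign along the genome. In sperm-methylated tiles the group difference lay between -3.26 and -2.28 points on the 19 autosomes, with both WT-Pat-Aphi libraries below both Sperm libraries on 19 of 19. It was smaller where a tile held more shared positions, a number that depends on coverage as well as on CpG density. Tiles with 2 positions stood at 92.2% and 94.2% in WT-Pat-Aphi and 96.1% and 96.1% in Sperm, a difference of -2.90 points over 14790 tiles. Tiles with 6 to 8 positions stood at 92.9% and 94.5% in WT-Pat-Aphi and 95.4% and 95.3% in Sperm, a difference of -1.68 points over 491 tiles. The 45 tiles with 9 or more gave -1.13 points. These bins are of the same libraries and unequal depth, and no test was made between them.

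The difference was larger in partly methylated tiles. They averaged 40.24% and 44.02% in WT-Pat-Aphi, against 49.08% and 48.33% in Sperm. The groups did not overlap, with means of 42.1% ± 2.67 and 48.7% ± 0.529 (SD, n = 2 each) and a difference of -6.58 points (single-library differences between -8.85 and -4.32; exact two-sided permutation test, p = 0.333). The size depended on weighting, since tiles weighted by calls gave -3.34 points. By number of positions the difference was -6.76 points in tiles with 2 positions, -7.09 with 3, -3.24 with 6 to 8 and -0.151 in the 40 tiles with 9 or more. The tiles with the most shared positions were again those in which the pronuclear and sperm levels lay closest.

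**Figure D1:**
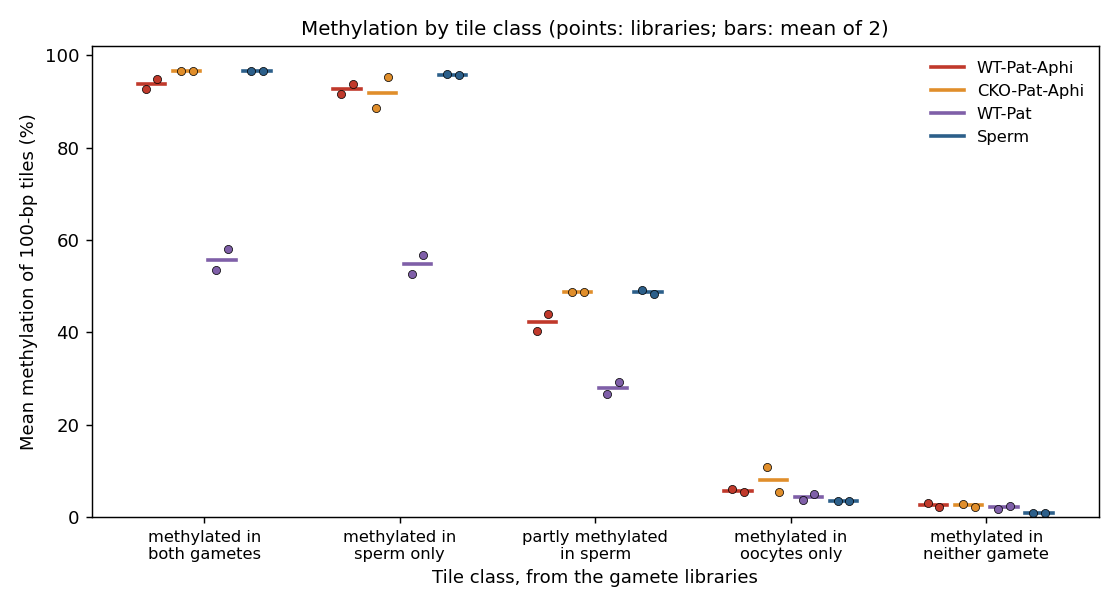
Mean methylation of 100-bp tiles (%, y axis) in 5 tile classes set by the gamete libraries (x axis), for WT-Pat-Aphi, CKO-Pat-Aphi, WT-Pat and Sperm; points are libraries and bars the mean of 2. CKO-Pat-Aphi and WT-Pat are averaged over the tiles of a class in which both of their libraries had at least 10 calls. WT-Pat-Aphi stays near Sperm in the methylated classes, at 92.8% and 94.9% against 96.6% and 96.6% in tiles methylated in both gametes, while WT-Pat lies at 53.5% and 57.9% there.

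Finer bins showed where on the scale of sperm methylation the difference lay. Tiles were binned by Sperm replicate 1 and compared with Sperm replicate 2, which took no part in the binning. In tiles at 60% to 75%, WT-Pat-Aphi averaged 58.3% and 61.4%, against 67.0% in Sperm replicate 2, a difference of -7.15 points, the largest of the 11 bins. At 40% to 60% the levels were 39.5% and 44.2% in WT-Pat-Aphi and 48.7% in Sperm replicate 2, a difference of -6.84 points. The 2 bins lie in the middle of the scale, and toward both ends the difference was smaller. It was -4.44 points at 25% to 40%, -3.23 at 75% to 90% and -2.53 at 98% to 100%. Below 10% its sign turned, with 1.56 points at 5% to 10%, 2.31 at 2% to 5% and 1.71 at 0% to 2%.

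**Figure D2:**
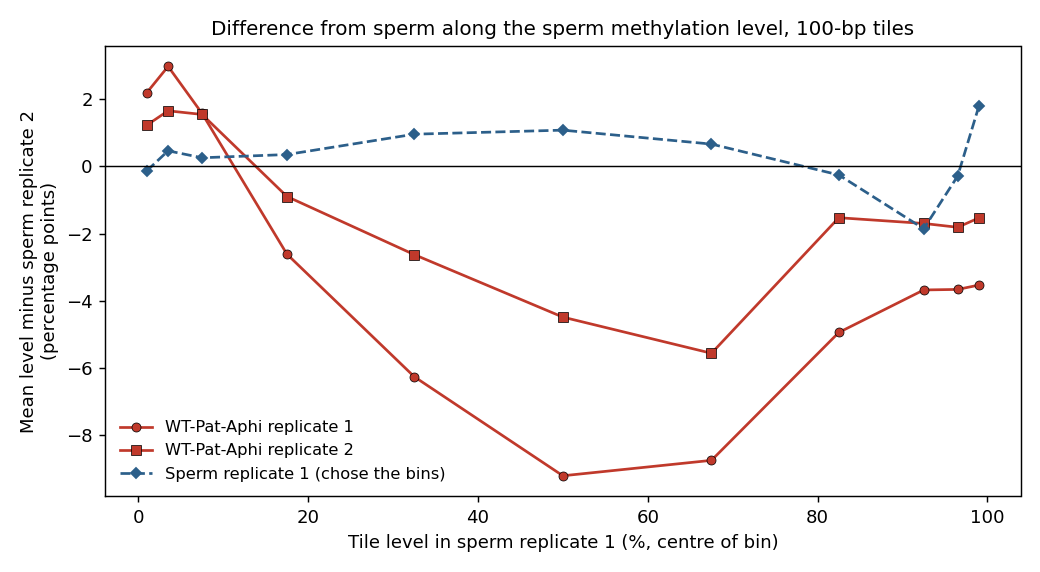
Mean level minus that of Sperm replicate 2 (percentage points, y axis) for 100-bp tiles binned by their level in Sperm replicate 1 (%, x axis), for WT-Pat-Aphi replicates 1 and 2 and for Sperm replicate 1, which chose the bins. Both pronuclear lines are lowest in the middle of the scale, where their mean lies -6.84 and -7.15 points from sperm, and above 0 in tiles under 10%.

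In sperm-methylated tiles the lower mean sat in a minority of tiles. The median tile was at 100% in both WT-Pat-Aphi libraries, against 97.2% and 97.3% in Sperm. Tiles at exactly 100% made up 74.2% and 75.6% of the class in WT-Pat-Aphi, against 15.1% and 15.9% in Sperm. At the other end, 1546 tiles (6.60%) and 1050 tiles (4.48%) stood at 50% or less in the WT-Pat-Aphi libraries, which the class rule allows for no tile in Sperm. The pronuclear levels were thus spread to both sides of the narrow sperm distribution.

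Partly methylated tiles showed this spread more fully. In WT-Pat-Aphi 29.8% and 27.0% of them were at 0% and 13.6% and 15.3% at 100%, against none at either end in Sperm, whose mean level chose them. The SD over tiles was 36.1 and 36.4 points in WT-Pat-Aphi, against 16.1 and 16.3 in Sperm. Replicates diverged in the same way: the 2 WT-Pat-Aphi libraries lay 31.3 points apart in the average tile of this class, against 8.35 points between the Sperm libraries. In sperm-methylated tiles the gap was 10.6 points in WT-Pat-Aphi and 2.64 in Sperm. How far the small number of pronuclei in a pool sets this spread was not tested, and a tile at an intermediate level in every pronucleus cannot be told apart from one methylated in some and not in others.

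**Figure D3:**
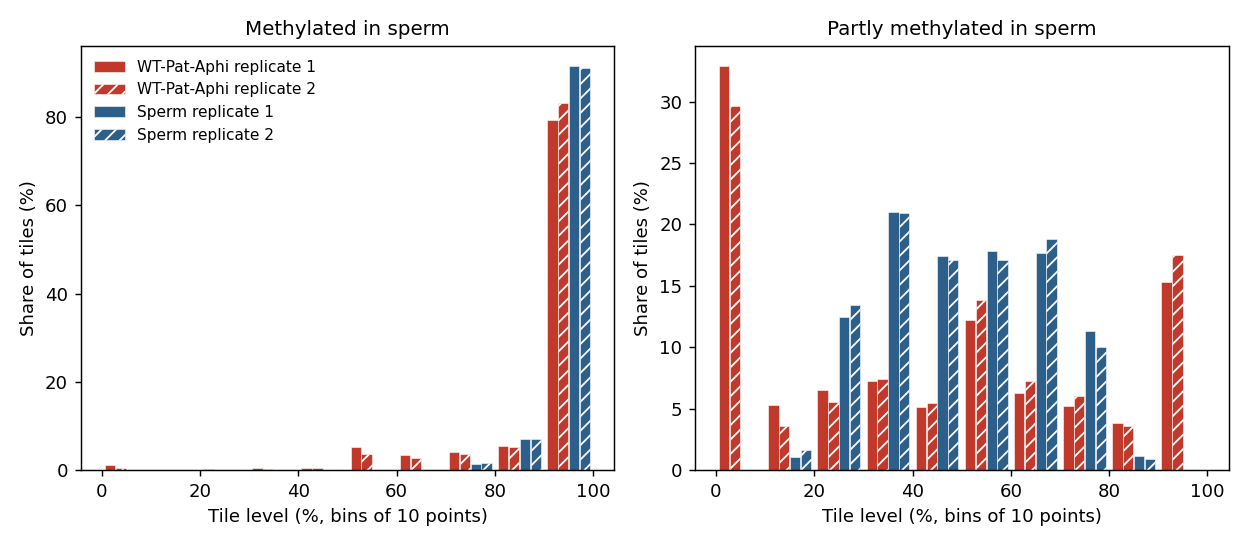
Share of tiles (%, y axis) by tile level (%, bins of 10 points, x axis) in WT-Pat-Aphi and Sperm, replicates 1 and 2 of each, for sperm-methylated tiles (left) and partly methylated tiles (right). In the right panel 29.8% and 27.0% of tiles are at 0% in WT-Pat-Aphi and none in Sperm; in the left panel a tail of WT-Pat-Aphi tiles, 6.60% and 4.48% of the class, reaches 50% or less.

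Low tiles recurred between the pronuclear libraries only in part. The 1546 sperm-methylated tiles at 50% or less in WT-Pat-Aphi replicate 1 averaged 88.5% in replicate 2, where 11.6% of them were also at 50% or less, beside 4.48% of the whole class. The 1050 tiles chosen on replicate 2 averaged 85.6% in replicate 1, where 17.1% were at 50% or less, beside 6.60% of the class. Most tiles that were low in 1 library were therefore high in the other, and the recurrence was above that of the class in both directions. The low tiles had fewer calls than the class, with a median of 26 in replicate 1 against 39 over all sperm-methylated tiles. The 180 tiles low in both averaged 36.0% and 35.9% in WT-Pat-Aphi, where the level chose them, and 91.0% and 90.7% in Sperm. In libraries that took no part in the choice, only tiles with at least 10 calls were read, so the tiles differ between libraries. The low tiles stood at 85.2% and 86.7% in CKO-Pat-Aphi (125 and 126 tiles). There the sperm-methylated tiles with enough calls in both libraries, 13712 tiles, stood at 92.3% and 95.7%. In WT-Pat the low tiles stood at 37.3% and 39.1% (94 and 157 tiles), beside 54.0% and 58.3% over 14187 tiles of the class.

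The lowest tiles are given as examples. Of the 23423 sperm-methylated tiles, 14 were at 0% in both WT-Pat-Aphi libraries, and the first of them are named by their number of calls. A tile at chr5:74175001-74175100 (mm9) was at 0 of 56 and 0 of 48 calls in WT-Pat-Aphi, counts which allow levels of up to 5.36% and 6.25%, against 96.1% and 87.7% in Sperm. A tile at chr15:97255201-97255300 was at 0 of 38 and 0 of 72 calls, against 86.9% and 78.9%, and one at chr16:22458401-22458500 at 0 of 33 and 0 of 63, against 83.0% and 82.1%. The other 2 lie on chromosome 1. That at chr1:133732201-133732300 was at 0 of 28 and 0 of 34 calls in WT-Pat-Aphi, against 98.9% and 100% in Sperm, and that at chr1:135058901-135059000 at 0 of 24 and 0 of 54, against 82.8% and 77.1%. The mock WT-Pat libraries varied in these tiles. They stood at 100% in replicate 2 for the chromosome 5 tile, 58.9% and 0% on chromosome 15, and 7.96% in replicate 2 on chromosome 16. The tile at chr1:133732201-133732300 had no WT-Pat calls, and that at chr1:135058901-135059000 stood at 100% and 21.7%. How far sampling of few molecules sets these levels was not tested. None of the 5 passed the tile test described below, in which the adjusted p of each was 1.00 after rounding, and the limits cover counting error only.

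The strands of a CpG were also read apart. A CpG carries a cytosine on either strand, and 2732 CpGs with both strands among the shared positions were at 75% or more on both strands in both Sperm libraries. In WT-Pat-Aphi the strands of 275 (10.1%) and 197 (7.21%) of these CpGs lay 50 points or more apart, against 0 and 0 in Sperm. Both strands were at 50% or less in 32 and 17 of them. CpGs with strands far apart thus outnumbered those low on both strands in both libraries. Rare deficits that fall on each strand independently would give the same order. No expected counts were computed, so no conclusion is drawn from it. In CKO-Pat-Aphi 9.93% and 4.60% of the CpGs with enough reads had strands 50 points apart, and 0.799% and 0.324% were at 50% or less on both. In WT-Pat, cultured without the drug, 38.4% and 24.8% of the CpGs with enough reads had strands 50 points apart, and 18.1% and 15.8% were at 50% or less on both.

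Sperm-unmethylated tiles stood slightly higher in the pronuclei. They averaged 3.20% and 2.33% in WT-Pat-Aphi, against 1.09% and 1.08% in Sperm, a difference of 1.68 points with single-library differences between 1.24 and 2.11 (exact two-sided permutation test, p = 0.333). The order was the same on 19 of 19 autosomes, where the difference lay between 1.31 and 2.16 points. The difference sat in few tiles: 84.5% and 86.4% of the class were at 0% in WT-Pat-Aphi, more than the 57.5% and 58.9% in Sperm, while 2.09% and 1.62% were at 50% or more.

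Oocyte DNA carried over into a paternal sample would show at tiles methylated in oocytes only. The 3141 such tiles stood at 5.99% and 5.33% in WT-Pat-Aphi, against 3.40% and 3.40% in Sperm, a difference of 2.26 points (exact two-sided permutation test, p = 0.333), beside 96.5% and 96.5% in oocytes. The 60945 tiles methylated in neither gamete, where oocyte DNA brings no methylation, stood at 3.01% and 2.15% in WT-Pat-Aphi, against 0.921% and 0.914% in Sperm and 0.920% and 0.955% in oocytes. The level thus lay above that of both gametes in these tiles too, and the part of oocyte DNA in either class was not tested. In the same tiles the 6 other paternal pronuclear libraries ran between 1.83% and 2.91% and the 8 maternal ones between 0.797% and 1.62%.

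Tiles high in WT-Pat-Aphi recurred more than low ones. The 1571 sperm-unmethylated tiles at 50% or more in replicate 1 averaged 28.3% in replicate 2, where 28.1% of them were at 50% or more, beside 1.62% of the class. The 1219 chosen on replicate 2 averaged 34.0% in replicate 1, where 36.2% were at 50% or more, beside 2.09%. The 441 tiles high in both were read, in libraries outside the choice, where a library had at least 10 calls. They stood at 49.5% and 48.1% in CKO-Pat-Aphi (338 and 348 tiles) and 45.8% and 53.1% in WT-Pat (307 and 406 tiles). In oocytes they stood at 14.6% and 14.5% (431 and 426 tiles).

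Single tiles were tested with a quasi-binomial model of the methylated and unmethylated calls, whose spread was estimated over the 10 paternal libraries, with Benjamini-Hochberg adjustment over all tiles. The spread given to a tile was that typical of its depth, so its p does not reflect how far its own replicates differed. Calls needed an adjusted p below 0.05 and groups at least 10 points apart. Of 104345 tiles of 100 bp, 0 were called lower in WT-Pat-Aphi (0% of those tested), the smallest adjusted p being 0.379. At an unadjusted p under 0.05 and 10 points 261 were lower. Over all tiles limma, run on arcsine square roots of the levels, called 460 lower. No single 100-bp tile could thus be named as demethylated by the model, although the class means lay lower. At these depths even a full loss could go uncalled. The tile at chr5:74175001-74175100, at 0 of 56 and 0 of 48 calls against 96.1% and 87.7% in Sperm, had an unadjusted p of 0.00415 in the quasi-binomial model. The count of 0 therefore does not show that no tile lost methylation. Among 63560 tiles of 1000 bp 1 was called lower (0.00157%). It lies at chr10:107582001-107583000 (mm9), holds 5 shared positions, and was at 0% and 0% in WT-Pat-Aphi, against 70.0% and 87.1% in Sperm (quasi-binomial model, Benjamini-Hochberg adjusted p = 0.0350). The call was lost without WT-Pat-Aphi replicate 2 or either Sperm library, with the replicate block, and with the spread taken from the 4 libraries alone, taken from the pronuclear groups alone or floored at 1 before shrinkage. CKO-Pat-Aphi stood at 40.0% and 100% in this tile and oocytes at 0% and 7.69%.

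Without a test, 4015 tiles of 100 bp (3.85%) had both WT-Pat-Aphi libraries below both Sperm libraries with a difference of 10 points or more, and 3797 (3.64%) had both above. The classes differed in balance. In sperm-methylated tiles 1084 (4.63%) were lower and 688 (2.94%) higher. In partly methylated tiles 1523 (32.3%) were lower and 740 (15.7%) higher. In sperm-unmethylated tiles 1120 (1.49%) were lower and 2229 (2.96%) higher. In each class the more frequent direction was that of its mean difference. The limits of a class bound how far a tile can move, so these shares are a description only.

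Higher calls were few and clear in size. The model called 52 tiles of 100 bp higher in WT-Pat-Aphi (0.0498% of those tested) and 354 of 1000 bp (0.557%). The 52 tiles averaged 76.1% and 72.7% in WT-Pat-Aphi, against 0.498% and 0.544% in Sperm, and 51 of them were at 5% or less in both Sperm libraries. They lay on 18 chromosomes and held a median of 7.5 positions and 426.5 calls, beside 5 and 178.75 over the 69554 tiles at 5% or less in both Sperm libraries. The median called tile was therefore deeper and held more shared positions than the median such tile. The number of shared positions depends on coverage as well as on CpG density. With the spread taken from the pronuclear groups alone, 16 tiles were called. Where a library is left out below, its group also drops out of the estimate of the spread, so the count can change for both reasons. The count rested on the libraries: without WT-Pat-Aphi replicate 2 it was 7, without either Sperm library 1, with replicate number as a block 1, and with the spread taken from the 4 libraries alone 0, while limma called 388. The count at 1000 bp was 54 or 64 without a Sperm library and 0 with the block or with the spread of the 4 libraries alone.

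The 52 tiles were methylated in other paternal pronuclei as well. They averaged 53.3% and 58.8% in CKO-Pat-Aphi, 39.0% and 57.3% in WT-Pat and 53.1% and 56.5% in CKO-Pat, libraries that took no part in the contrast but did enter the estimate of the spread. Of the 42 tiles with calls in the other 6 paternal pronuclear libraries, 28 were at 10% or more in each of the 6, beside 268 of 38499 among all tiles at 5% or less in both Sperm libraries. In maternal pronuclei they averaged between 4.85% and 12.2%. In oocytes 42 of the 52 (80.8%) were at 5% or less in both libraries, near the 83.7% of all tiles at 5% or less in Sperm, so that low level is no trait of the called tiles.

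Called tiles less than 500 bp apart formed 6 regions of 2 tiles each, described here in order of their difference (Benjamini-Hochberg adjusted p from the quasi-binomial model, the higher of the 2 tiles). The region at chr5:137799001-137799200 (mm9, 14 positions) was at 96.1% and 95.5% in WT-Pat-Aphi, against 6.72% and 5.76% in Sperm, a difference of 89.6 points (adjusted p = 0.0118). It is the only one of the 6 that oocytes methylate, at 97.7% and 96.2%, and maternal pronuclei stood between 88.6% and 100%. CKO-Pat-Aphi was at 64.3% and 79.4% and WT-Pat at 50.0% and 85.2%.

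The other 5 regions were near 0% in both gametes. The region at chr13:31707101-31707300 (26 positions) was at 82.4% and 65.8% in WT-Pat-Aphi, against 0.318% and 0.479% in Sperm (adjusted p = 0.00175). It stood at 52.9% and 70.6% in CKO-Pat-Aphi, 81.0% and 65.0% in WT-Pat and 0.266% and 1.66% in oocytes. The region at chr14:70008701-70009000 (13 positions) was at 72.7% and 64.6% in WT-Pat-Aphi, against 0.167% and 0% in Sperm (adjusted p = 0.0323). That on chromosome 13 was also the most stable of the 6: it kept a called tile under 12 of 13 alternatives, and lost it with the spread taken from the 4 libraries alone.

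The region at chr16:20651601-20651800 (14 positions) was at 76.2% and 58.9% in WT-Pat-Aphi, against 0% and 0% in Sperm over 986 and 846 calls (adjusted p = 0.0421). On chromosome 2, the region at chr2:155340401-155340600 (16 positions) was at 68.3% and 57.5% in WT-Pat-Aphi, against 0.347% and 0.304% in Sperm (adjusted p = 0.0248). The region at chr2:74565501-74565700 (27 positions) was at 47.0% and 73.8% in WT-Pat-Aphi, against 0.226% and 0.0744% in Sperm (adjusted p = 0.0200). The groups lay far apart in each, yet the 2 WT-Pat-Aphi libraries differed from each other by up to 26.9 points. Without WT-Pat-Aphi replicate 2, or without either Sperm library, 5 of the 6 regions had no called tile, all but that on chromosome 13. Those on chromosome 16 and at chr2:155340401-155340600 also lost it without WT-Pat-Aphi replicate 1. Genes at these positions are not named, as no mm9 annotation was used.

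**Figure D4:**
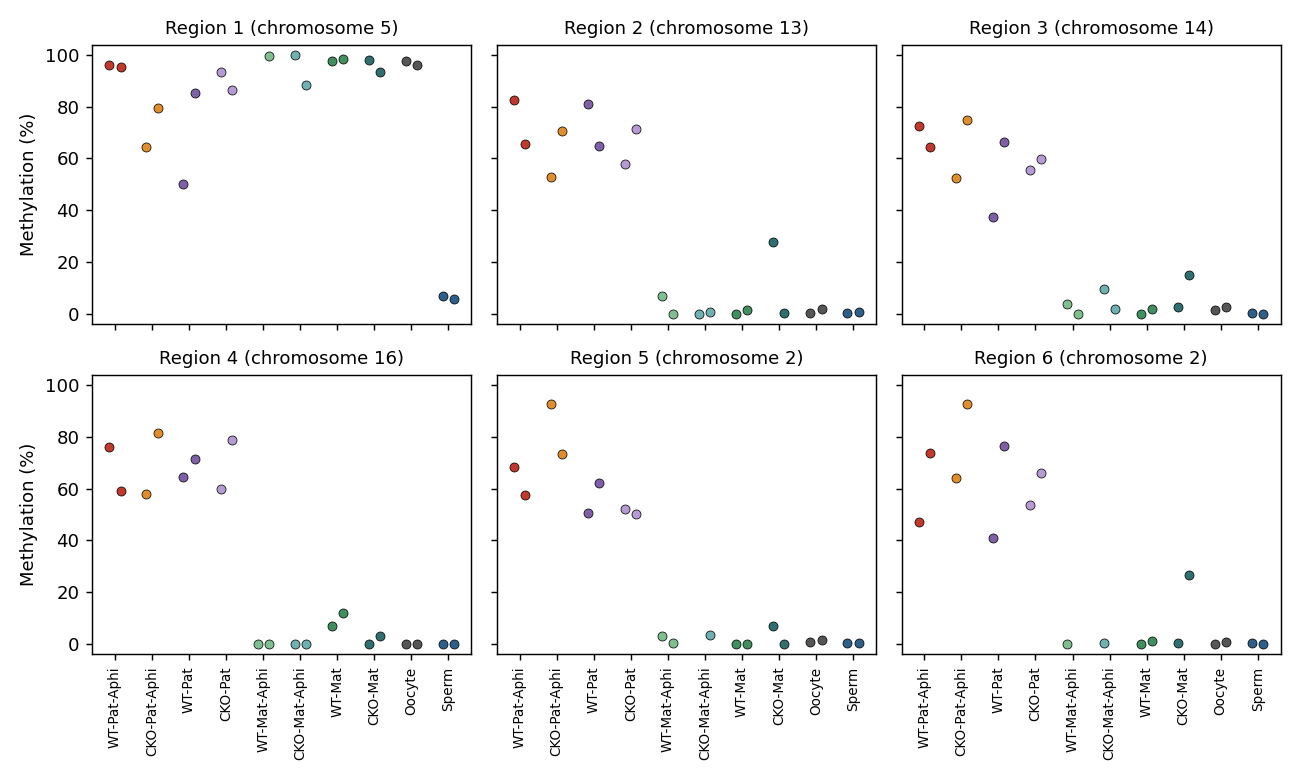
Methylation (%, y axis) of the 6 regions called higher in WT-Pat-Aphi than in Sperm, in order of difference, in each group of the series (x axis); points are libraries. In every panel the paternal pronuclear libraries lie between 37.3% and 96.1% and Sperm at 6.72% or less. Oocytes and all maternal pronuclear libraries shown are near full methylation in the first panel only. In the other panels oocytes reach at most 2.46% and maternal libraries at most 27.7%, in CKO-Mat replicate 1 on chromosome 13. The 4 maternal values left out had under 10 calls in at least 1 tile of the region.

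The nearest groups differ from WT-Pat-Aphi in the drug or in maternal Tet3. Paternal pronuclei cultured without the drug had far less methylation in the same tiles. Over the 14187 sperm-methylated tiles with at least 10 calls in both WT-Pat libraries, WT-Pat-Aphi stood at 92.4% and 94.3%, against 54.0% and 58.3% in WT-Pat. The groups were 37.3 points apart, with single-library differences between 34.1 and 40.4 (exact two-sided permutation test, p = 0.333). The distance to mock pronuclei was thus many times the distance to sperm.

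Against pronuclei that lacked maternal Tet3 under the same block, no difference could be given a sign over all sperm-methylated tiles. Over 13712 tiles WT-Pat-Aphi stood at 92.1% and 94.2%, against 92.3% and 95.7% in CKO-Pat-Aphi, a difference of -0.832 points with single-library differences between -3.58 and 1.91 (exact two-sided permutation test, p = 0.667). Without WT-Pat-Aphi replicate 1 the difference was 0.200 points and without CKO-Pat-Aphi replicate 2 it was 0.880. CKO-Pat-Aphi replicate 1 is the library with 10.9% at oocyte-only tiles.

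Tile classes were then taken apart, a choice made after these values were seen. In 5012 tiles methylated in both gametes WT-Pat-Aphi stood at 92.8% and 95.0%, against 96.5% and 96.6% in CKO-Pat-Aphi, a difference of -2.64 points with no overlap (exact two-sided permutation test, p = 0.333). Sperm stood at 96.6% and 96.6% over the 8317 tiles of this class. In 2994 partly methylated tiles, which oocytes hold at 28.6% and 28.8%, WT-Pat-Aphi stood at 39.8% and 43.3%, against 48.8% and 48.8% in CKO-Pat-Aphi, a difference of -7.20 points. Sperm stood at 49.1% and 48.3% over the 4720 tiles of that class. In these 2 classes the CKO-Pat-Aphi libraries lay beside sperm and both WT-Pat-Aphi libraries lay below them, and the 2 comparisons share the WT-Pat-Aphi libraries. Tiles methylated in sperm only did not show this order. There WT-Pat-Aphi stood at 91.6% and 93.7% over 9410 tiles, and CKO-Pat-Aphi at 88.5% and 95.3% over the 5713 with enough calls, so the groups overlapped. Whether Tet3 accounts for the differences in the 2 other classes was not tested.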

How the data were processed

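Per the submitters' processing notes, reads were handled with Trim Galore and Bismark 0.10.1 on the mouse build mm9; how reads were filtered, and whether duplicates were removed, is not stated in those notes or the labels. The deposited files hold 2 raw counts at each cytosine position, methylated calls and unmethylated calls, and a deposited percent that equals 100 times methylated over all calls. Groups and replicates follow the labels. Tile levels were methylated over all calls of the shared positions, and tiles were averaged with equal weight. In other libraries a tile needed at least 10 calls.

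Group means were compared by exact two-sided permutation. Tiles were tested in R 4.3.3 by a quasi-binomial model: 1 level per group, a Pearson dispersion from paternal groups expecting at least 5 calls of both kinds, shrunk on a depth trend with limma 3.58.1 squeezeVar and floored at 1, an F test, and Benjamini-Hochberg adjustment. The median dispersion was 42.1 at 100 bp. The shrinkage was complete at both tile sizes (infinite prior degrees of freedom), so each tile took the trend value at its depth in place of its own dispersion. At 100 bp 55347 tiles had no dispersion of their own. The script was tested on simulated data. The alternatives tried are given in the closing section.

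Named regions join called tiles less than 500 bp apart, at least 2 with both WT-Pat-Aphi libraries beyond both Sperm libraries; the 5 lowest sperm-methylated tiles are added, ties being broken by calls after values were seen. Members, classes and tests were chosen with earlier results of these data known. Confidence limits for a count of 0 take 3 counts and cover counting error only, since PCR copies are not independent molecules. Groups share replicate numbers, but the labels do not say that a number marks a shared animal or collection. Planned gene names were not given, as the annotation at hand is of another build. Other tools were Python 3.11.15, NumPy 2.4.6, pandas 2.3.3 and Matplotlib 3.10.9.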

Additional observations from a re-analysis of the deposited data

Results flagged for a closer look

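The mitochondrial genome took 3.02% and 4.19% of all calls in the WT-Pat-Aphi libraries, against 0.00213% and 0.00260% in Sperm. It lies outside the autosomal positions compared, and is given here as a signal in data not used above, far over the level in the sperm libraries. The other paternal pronuclear libraries had between 1.16% and 4.11%.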

How the results depend on the processing

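All 6 differences of mean methylation between WT-Pat-Aphi and Sperm, and that from WT-Pat, kept their sign under every alternative run for them. The replicate block is not counted among these, as it cannot change a mean difference. Leaving out 1 library at a time gave -3.75 to -1.75 points in sperm-methylated tiles, -3.48 to -1.51 in those of 1000 bp, -8.47 to -4.69 in partly methylated, 1.25 to 2.11 in sperm-unmethylated and 1.93 to 2.59 in oocyte-only tiles, 0.381 to 0.616 over all positions and 35.1 to 39.4 against WT-Pat. The difference from CKO-Pat-Aphi ran between -2.54 and 0.880, reversing to 0.200 without WT-Pat-Aphi replicate 1 and to 0.880 without CKO-Pat-Aphi replicate 2; the cause was not tested. Counts of called tiles moved most. Tiles of 100 bp called lower numbered 0 and 460 with limma. Those called higher, 52 as reported, numbered 0 with the dispersion of the 4 libraries alone, 16 with that of the pronuclear groups, 388 with limma, and 1 to 39 with 1 library left out. Tiles of 1000 bp called lower, 1 as reported, numbered 0 with either of those dispersions or with the floor before shrinkage, 269 with limma, 2 with at least 3 positions, and 0 to 14 with 1 library left out. Those called higher, 354 as reported, numbered 0 and 194 with those dispersions, 227 with limma, and 54 to 311 with 1 library left out. Replicate numbers showed no pairing (correlation of replicate differences between groups -0.0222 over tiles, with 2 pairs only). With replicate number as a block the counts were 0 lower and 1 higher at 100 bp and 0 and 0 at 1000 bp. By arithmetic the block leaves the mean differences as they are, so it is no check on them. Depth limits single tiles: a median sperm-methylated tile had 39 calls in WT-Pat-Aphi replicate 1 and 123 in replicate 2.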

Other observations

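The X chromosome took 0.483% and 0.735% of calls in WT-Pat-Aphi, against 1.07% and 1.07% in Sperm, and the Y chromosome 0.0158% and 0.0219%, against 0.0111% and 0.0117%. The ratio of X to Y calls was thus 30.5 and 33.6 in WT-Pat-Aphi, against 96.2 and 91.2 in Sperm. The other 6 paternal pronuclear libraries ran between 50.5 and 230, with the highest in CKO-Pat-Aphi replicate 1. The 103 tiles of 100 bp with over 10 times the median depth, which many-copy sequence can give, averaged 22.9% and 20.0% in WT-Pat-Aphi, against 18.8% and 21.8% in Sperm.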
